A study of Mus musculus with 6 samples.

Results

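The 62 rows described here are the replication-dependent histone genes of mouse bone marrow B220+ cells, taken as every row of a deposited expression table whose symbol begins with Hist1h, Hist2h, Hist3h or Hist4h, out of 27761 rows. They comprise 6 genes for the linker histone H1, 17 for H2A, 17 for H2B, 10 for H3 and 12 for H4. The rule used the symbol and no measured value. The number in the symbol is the gene cluster: 53 members belong to cluster 1 on chromosome 13, 5 to cluster 2, 3 to cluster 3 and 1 to cluster 4. All 62 have the same GRCm38 coordinates in GENCODE M21, which annotates 59 as protein-coding and 3 as pseudogenes.

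The study compared B220+ marrow cells of WT mice (3 libraries) with those of mice labelled PELI2 knockout (3 libraries, titled CKO). B220 is a form of CD45 carried by B-lineage cells and by plasmacytoid dendritic cells, and Peli2 encodes a Pellino ubiquitin ligase. The labels name no Cre driver, age, strain, sorting purity or source animal for any replicate. The p-values thus cover the spread among libraries, which may be partly technical. Values are FPKM (fragments per kilobase of transcript, scaled to library depth), with SDs over the n = 3 libraries of a group; where 2 values stand together, WT comes first.

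Histone genes of this kind are switched on when DNA is copied, and supply the proteins that wrap the new DNA. Their mRNAs are the known exception among animal mRNAs: they lack introns and a poly(A) tail, and end just after a short stem-loop that stem-loop binding protein (Slbp) holds. Some of these genes also make a longer, polyadenylated form from a site further downstream. The libraries were made with oligo(dT) beads, which bind poly(A) tails, so an FPKM here describes the RNA that this selection retained and not the whole histone mRNA pool.

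The stem-loop is shown first because it is the feature that sets these transcripts apart. The search took 16 bases on the transcript strand: GG, any 3 bases, TT, any base, T, any base, A, any 3 bases and CC, with the first 6 required to pair with the last 6 (G with T allowed). A match lay after the coding part, in the 3′ untranslated exon, in 41 of 62 members (66.1%), and began 21 to 54 bases (median 31) after the stop codon. In all genes with a protein-coding transcript, 108 of 21901 held the motif anywhere (0.493%), and 0.302% of those that are no member did. The sequences below are read from the GENCODE M21 transcripts (GRCm38), 5′ to 3′, with the stem-loop in capitals and 5 bases on each side in lower case.
Hist1h1c (chr13:23739512-23739527, plus strand): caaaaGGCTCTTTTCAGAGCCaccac
Hist1h2bg (chr13:23571843-23571858, plus strand): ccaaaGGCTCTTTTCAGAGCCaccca
Hist3h2ba (chr11:58949349-58949364, plus strand): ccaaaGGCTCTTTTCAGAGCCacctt
Hist1h2bb (chr13:23747203-23747218, plus strand): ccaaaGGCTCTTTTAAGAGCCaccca
Hist1h3c (chr13:23745047-23745062, minus strand): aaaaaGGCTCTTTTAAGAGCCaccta
Hist1h4i (chr13:22040966-22040981, minus strand): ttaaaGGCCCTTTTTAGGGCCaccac
Hist1h4h (chr13:23531458-23531473, plus strand): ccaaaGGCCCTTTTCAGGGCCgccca
These members were chosen for a high level or a small p in the results that follow, with Hist1h3c for the H3 genes. The loop differed among them, and so did the stem between the H4 genes and the rest, with the pairing that the search required. The form of Hist1h1c, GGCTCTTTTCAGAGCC, was held by 22 members of types H1, H2A, H2B and H3, and by no H4 member. The form of Hist1h4h, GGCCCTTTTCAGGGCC, was held by 7 members, all of them H4. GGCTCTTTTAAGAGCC was held by 6 members, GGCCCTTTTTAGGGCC by 2, and 4 other forms by 1 member each.

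Most of the members stood at low levels, and a single linker histone gene held much of the total. The median member had a mean of 1.62 FPKM over the 6 libraries, against 0.683 FPKM for the median row of the table. Of the 62, 5 had a mean of 10 FPKM or more, 37 lay between 1 and 10 FPKM, and 20 lay under 1 FPKM, of which 13 stayed under 1 FPKM in every library. Hist1h1c (ENSMUSG00000036181, chr13:23738808-23740367), which encodes linker histone H1.2, made up 43.4% of the summed FPKM of all members, and the top 5 members made up 69.7%.

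**Figure D1:**
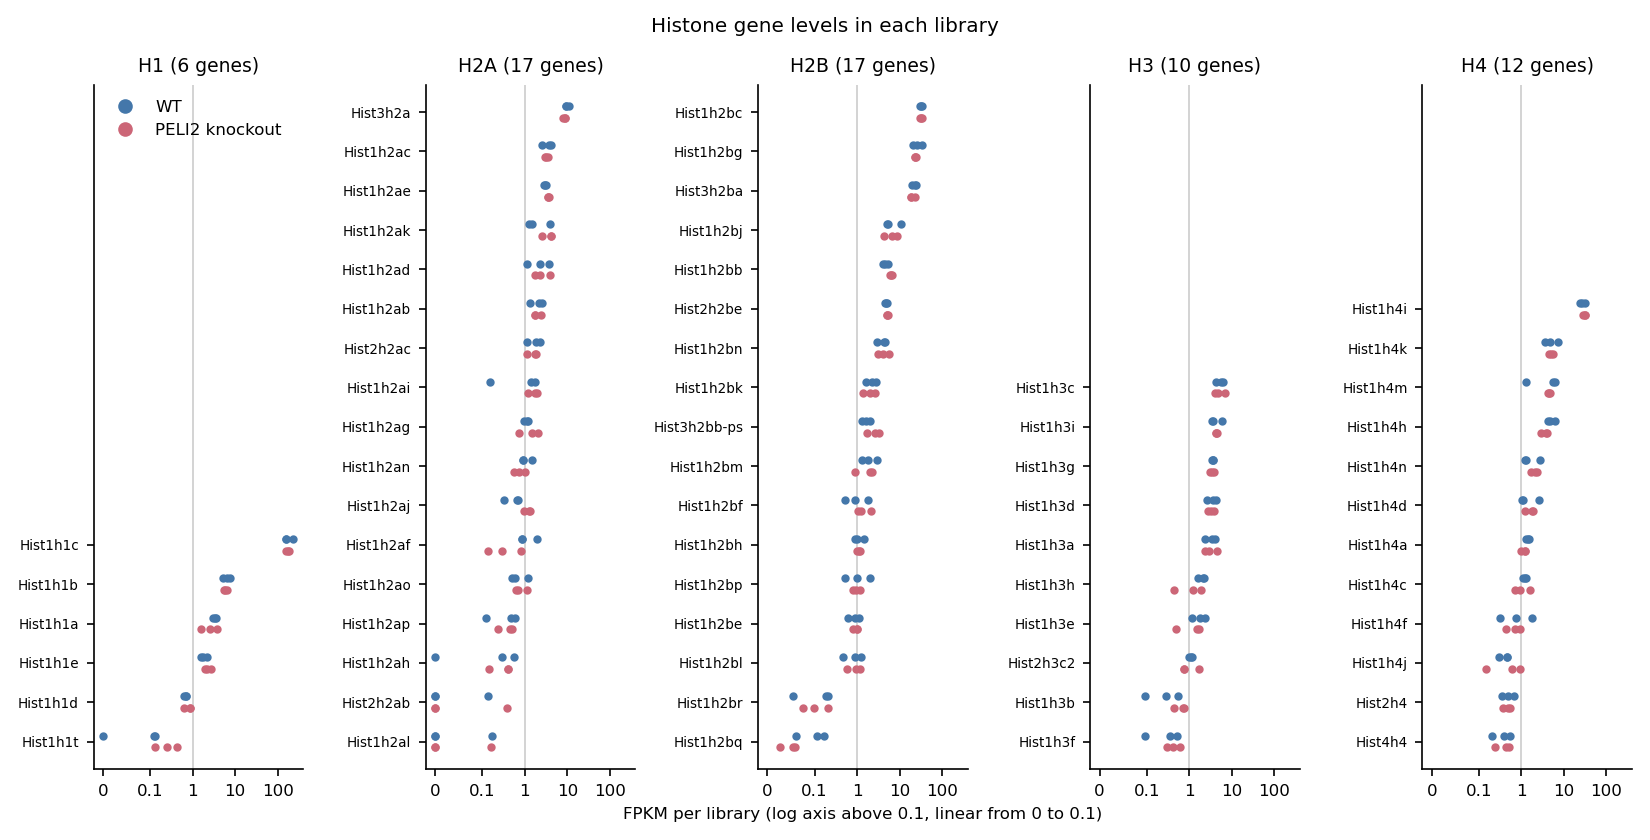
FPKM of each of the 62 histone genes in each library (x axis, logarithmic above 0.1 FPKM), by type, with genes ordered by mean level; blue points are the 3 WT and red points the 3 PELI2 knockout libraries. Hist1h1c sits at 156 to 228 FPKM, far to the right of every other member, and 20 genes have a mean under the grey line at 1 FPKM.

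Depth limits what can be read from the lower members. The totals recovered from the steps between low FPKM values were 16625050 to 18116850 reads per library. For the 58 members with 1 annotated transcript, each FPKM could be turned back into reads, and all 48 values under 6 reads came out whole within 0.03 reads. Of these 58 members, 44 had a median under 50 reads per library and 7 had 200 or more. Hist1h1c had 4085 to 6310 reads, Hist1h2bc 594 to 685, and Hist1h4i 282 to 413.

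Histone genes are also near copies of each other, and reads were 50 bases long. In the median member, 48.1% of the 50-base windows of its transcript occurred in no other annotated gene, and 31 members were under 50%. The H1 genes were the most distinct, with a median of 98.8% of windows unique, and the H2A genes the least, with 32.4%. Hist1h2bq had 1.54%. Levels of the members with few unique windows are therefore uncertain in both directions. Reads from a copy can be assigned to them, and their own reads can be assigned to a copy or left out. Hist1h4m, an H4 gene with 10.2% of windows unique, stood at 5.48, 6.28 and 1.30 FPKM in WT replicates 1 to 3 and 4.26, 4.38 and 4.82 FPKM in PELI2 knockout. Its low library, WT replicate 3, had 9 reads, against 39 and 42 in WT replicates 1 and 2. That library was the highest for Hist1h4n (14.4% unique), which was chosen after its values were seen: 20 reads there against 9 in each of the other WT libraries and 13 to 17 in the libraries labelled PELI2 knockout. Whether reads were assigned to the wrong copy was not tested.

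Linker histone H1 binds where DNA enters and leaves the nucleosome. Hist1h1c stood at 228, 158 and 156 FPKM in WT replicates 1 to 3 and at 178, 184 and 159 FPKM in PELI2 knockout replicates 1 to 3. WT replicate 1 was the highest and the other 5 libraries lay close together, so the groups overlapped. Hist1h1b (H1.5) followed far below at 6.52 ± 1.24 and 5.94 ± 0.456 FPKM, and Hist1h1a (H1.1) at 3.32 ± 0.273 and 2.61 ± 1.09 FPKM. The neighbours Hist1h1b and Hist1h1a did not overlap in level in any library, while Hist1h1c exceeded both in all 6.

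H2A and H2B form the dimers on either side of the nucleosome core. Hist1h2bc had 33.4, 32.6 and 29.8 FPKM in WT and 31, 33.5 and 31.7 FPKM in PELI2 knockout. Next among the H2B genes were Hist1h2bg, at 33.4, 25.6 and 21.2 FPKM in WT and 23.1, 24.8 and 23.5 FPKM in PELI2 knockout, and Hist3h2ba, at 19.8, 23.5 and 24.6 FPKM in WT and 18.6, 22.6 and 18.4 FPKM in PELI2 knockout. The range of Hist1h2bg over the libraries overlaps those of both others, while Hist1h2bc lay above Hist3h2ba in all 6. The highest H2A gene was Hist3h2a, at 11, 9.50 and 9.10 FPKM in WT and 9.03, 8.74 and 7.95 FPKM in PELI2 knockout. Hist1h2ac and Hist1h2ae came next, with means over the 6 libraries of 3.34 and 3.26 FPKM and overlapping ranges.

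H3 and H4 form the tetramer at the centre of the nucleosome. No H3 member reached 10 FPKM. The highest were Hist1h3c, with 4.04 to 7.10 FPKM over the 6 libraries, Hist1h3i, with 3.39 to 5.90 FPKM, and Hist1h3g, with 3.02 to 3.76 FPKM, and neighbours in this order overlap. Among the H4 genes, Hist1h4i stood at 31.1, 23.3 and 27.3 FPKM in WT and 28.8, 30.5 and 31.5 FPKM in PELI2 knockout, above every other H4 member in all 6 libraries. Hist1h4k followed with 3.66 to 7.25 FPKM.

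The highest members had long annotated ends. GENCODE M21 transcripts of 22 members ran 100 bases or more past the stem-loop, and these held 69.8% of the summed FPKM of all members, with Hist1h1c, Hist1h4i, Hist1h2bg, Hist3h2ba and Hist3h2a among them. Hist1h2bc, the second highest member, had no match to the stem-loop in its annotated transcript, which runs 742 bases past the coding part and is spliced over chr13:23684199-23692908. The 6 highest members all had 200 bases or more after the coding part, as did 24 of all 62. In 13 other members no stem-loop was matched and the annotated transcript ended less than 100 bases after the coding part; sequence beyond annotated ends was not searched, so whether a stem-loop follows there was not tested. Neither these 13 nor the 19 whose transcript ended within 100 bases after the stem-loop exceeded 6.86 FPKM on average.

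A long annotated end did not by itself go with a high level. The median was 1.38 FPKM in the 22 members that ran past the stem-loop, 1.98 FPKM in the 19 that ended at it and 1.57 FPKM in the 13 with a short end and no match, and the ranges overlapped. The hexamer AATAAA, the usual signal for cleavage and polyadenylation, was found in the last 50 bases of 11 members (17.7%), against 40.5% of 58797 protein-coding transcripts, and those 11 had a median of 1.27 FPKM against 1.65 FPKM for the other 51. These shares differ in kind. That of the members takes 1 transcript per gene, pseudogenes included, and the other takes every protein-coding transcript of every gene. An FPKM divides by the annotated length, so a transcript that is shorter or longer in these cells than in the annotation would shift its value. Windows also differed, with a median of 76.7% unique in the members running past the stem-loop and 40.6% in those ending at it. The part that length and uniqueness have in these levels was not tested.

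**Figure D2:**
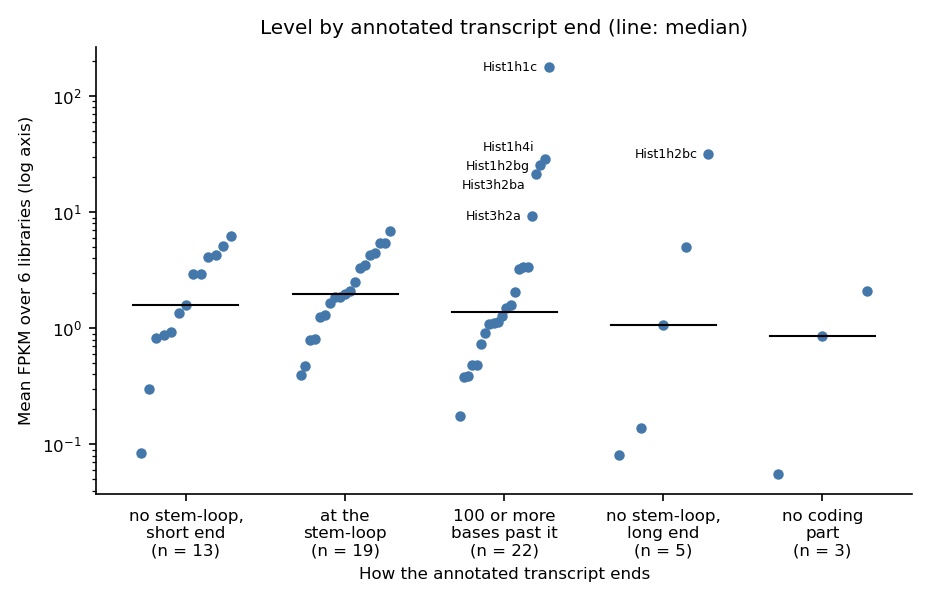
Mean FPKM over 6 libraries (logarithmic axis) of each histone gene, by how its GENCODE M21 transcript ends (no match to the stem-loop and a short end, at the stem-loop, past it, no match and a long end, or no coding part); each point is a gene and each line the median of its class. The members above 9 FPKM lie in the 2 classes with long ends, while the class medians stay between 0.864 and 1.98 FPKM.

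H2A and H2B genes are often neighbours that start back to back, and 13 such divergent pairs were present, with 172 to 301 bases between the annotated starts. The H2B gene was higher in all 6 libraries in 5 pairs and the H2A gene in 3. Hist1h2ac and Hist1h2bc, with 250 bases between them, differed most in favour of H2B, at 3.34 and 32.0 FPKM, a ratio of 9.58. Hist1h2ae and Hist1h2bg stood at 3.26 and 25.3 FPKM. In the opposite direction, Hist1h2ao stood at 0.792 FPKM and Hist1h2bq at 0.0806 FPKM, a ratio of 0.102, though Hist1h2bq has the fewest unique windows of all members. Hist3h2a stood at 9.22 FPKM and its partner Hist3h2bb-ps, annotated as a pseudogene, at 2.09 FPKM. The ratio of H2B to H2A was 1.41 in the median pair, and many of these genes share windows with copies.

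**Figure D3:**
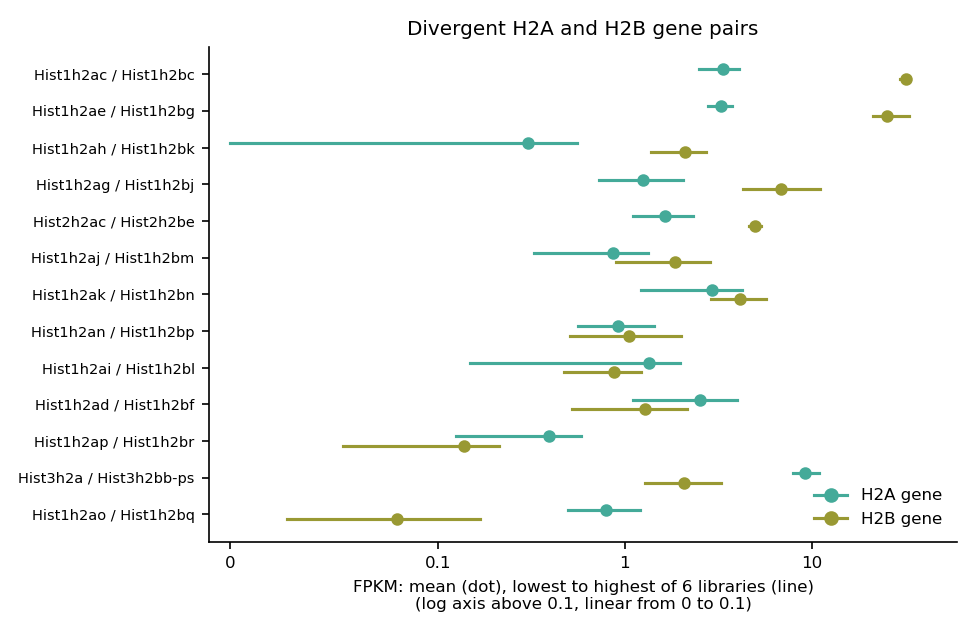
FPKM of the H2A gene (green) and the H2B gene (olive) in 13 divergent pairs; dots are means and lines span the lowest to highest of 6 libraries, on an axis that is logarithmic above 0.1 FPKM. The pairs at the top have the H2B gene higher, up to a ratio of 9.58 for Hist1h2ac and Hist1h2bc, and the pairs at the bottom have the H2A gene higher.

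The promoter of Hist1h2ac and Hist1h2bc is printed because it lies between both starts of the pair that differed most in favour of H2B. It is the RefSeq entry for Hist1h2ac (GRCm38.p6, chr13:23683910-23684209, minus strand), from 250 bases before to 50 bases after its start. Capitals mark matches to ATTTGCAT (the octamer bound by Oct factors), TATAAA and CCAAT, searched on both strands, so that ATGCAAAT and ATTGG are the octamer and CCAAT read on the opposite strand.
Hist1h2ac promoter: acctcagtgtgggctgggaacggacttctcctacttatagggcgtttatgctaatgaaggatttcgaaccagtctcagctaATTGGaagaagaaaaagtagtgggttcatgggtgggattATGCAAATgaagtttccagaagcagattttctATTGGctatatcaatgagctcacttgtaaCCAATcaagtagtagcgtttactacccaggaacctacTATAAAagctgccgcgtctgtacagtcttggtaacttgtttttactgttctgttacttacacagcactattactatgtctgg
In all, 54 of 62 members matched 55 RefSeq promoters by Entrez ID. The octamer was present in 40.0% of the 15 H2A and 33.3% of the 15 H2B promoters and in none of the H1, H3 and H4 promoters, against 1.74% of all 32851 promoters. These promoters are not all independent. Windows of a divergent pair can overlap and hold the same octamer, as for Hist1h2ae and Hist1h2bg, and Hist1h2be was entered more than once. TATAAA was present in 58.2% of member promoters against 13.6% of all, and CCAAT in 85.5% against 37.4%. CCAAT was in every H1, H2A, H2B and H3 promoter matched and in 27.3% of the 11 H4 promoters. A match describes the letters in the window and not binding.

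The comparison of the groups asks whether histone transcripts differ in cells with the knockout label. Peli2 itself did not separate the labels: it stood at 2.03, 2.54 and 1.99 FPKM in WT and 3.07, 2.70 and 2.47 FPKM in libraries with the knockout label (limma, log2 fold change 0.23, adjusted p = 0.293). The value is per gene, so the loss of a short exon would not show in it. Every direction below is therefore that of the label. The test, limma, took genes that reached 1 FPKM in 3 libraries or more, and ran on log2(FPKM + 1), a scale that understates changes at low levels. Of the members, 41 passed this filter (4 H1, 9 H2A, 12 H2B, 8 H3 and 8 H4) and 21 did not. None of the 41 passed through the libraries of 1 group alone.

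No histone gene passed the test, and the share of members at a small p was not above that of all genes. At an adjusted p under 0.05, 0 of 41 tested members were called, against 3 of all 12953 genes tested (0.0232%), all 3 higher. The lowest adjusted p of a member was 0.151 (limma). At an unadjusted p under 0.05, 2 members were higher and 1 was lower, or 7.32% of those tested, against 18.1% of all genes (9.2% higher and 8.88% lower). The groups did not overlap in 3 members on the higher and 3 on the lower side (14.6%), against 25.8% of all genes tested (11.5% higher and 14.3% lower). Over all rows, 5 members of 62 lay apart on each side, against 16.4% of rows (7.63% higher and 8.75% lower). The median log2 fold change was -0.025 over the members and -0.014 over all genes tested, with 18 members above 0 and 23 below. Whether the members' shares differ from those of other genes was not tested. With a library left out, 1 to 13 genes were called (13 without PELI2 knockout replicate 3, 1 without its replicate 1 or 2), and 0 members in each case.

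The member with the smallest p was Hist1h2bb, an H2B gene whose transcript ends 23 bases after its stem-loop. It stood at 4.44, 4.14 and 5.25 FPKM in WT and 6.52, 6.35 and 5.89 FPKM in PELI2 knockout, or 35 to 46 reads against 54 to 60. All 3 libraries of PELI2 knockout lay above all 3 of WT (limma, log2 fold change 0.37, SE 0.09, adjusted p = 0.151). Hist1h2ae, an H2A gene, had 3.05, 3.08 and 2.80 FPKM in WT and 3.76, 3.42 and 3.46 FPKM in PELI2 knockout (adjusted p = 0.228, limma). The third gene apart on the higher side was Hist2h2be, chosen after its values were seen, at 4.83 ± 0.179 and 5.20 ± 0.194 FPKM.

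On the lower side, Hist1h4h, an H4 gene, stood at 6, 4.22 and 4.81 FPKM in WT and 2.94, 3.99 and 3.77 FPKM in PELI2 knockout (limma, log2 fold change -0.39, SE 0.14, adjusted p = 0.228). Every WT library lay above every PELI2 knockout library, by 33 to 50 reads against 25 to 32. Hist3h2a was apart by a narrow margin, with the lowest WT library at 9.10 FPKM and the highest PELI2 knockout library at 9.03 FPKM (limma adjusted p = 0.303). In reads, before scaling to depth, its groups overlapped, at 337 to 417 against 308 to 351. Hist1h4a, chosen after its values were seen, stood at 1.4 ± 0.097 and 1.15 ± 0.145 FPKM. It had 12 to 14 reads in WT and 9 to 12 in PELI2 knockout, so its groups met at 12 reads. Other members with small p overlapped between groups: Hist1h2ak at 2.19 ± 1.46 and 3.64 ± 0.967 FPKM, Hist3h2bb-ps at 1.66 ± 0.386 and 2.52 ± 0.81 FPKM, Hist1h3h at 1.97 ± 0.318 and 1.17 ± 0.73 FPKM, and Hist3h2ba, whose values are above.

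The 4 most abundant members gave no difference past the test. Hist1h2bc had a log2 fold change of 0.007 (SE 0.06, limma adjusted p = 0.962), which was -0.065 after rescaling to a common total and -0.017 after quantile normalization. Hist1h4i had 0.15 (SE 0.10, limma adjusted p = 0.461), Hist1h2bg -0.14 (SE 0.15, adjusted p = 0.652) and Hist1h1c -0.04 (SE 0.15, adjusted p = 0.917). By type, the median log2 fold change of the tested members was -0.071 for H1, 0.136 for H2A, 0.001 for H2B, -0.043 for H3 and 0.046 for H4.

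**Figure D4:**
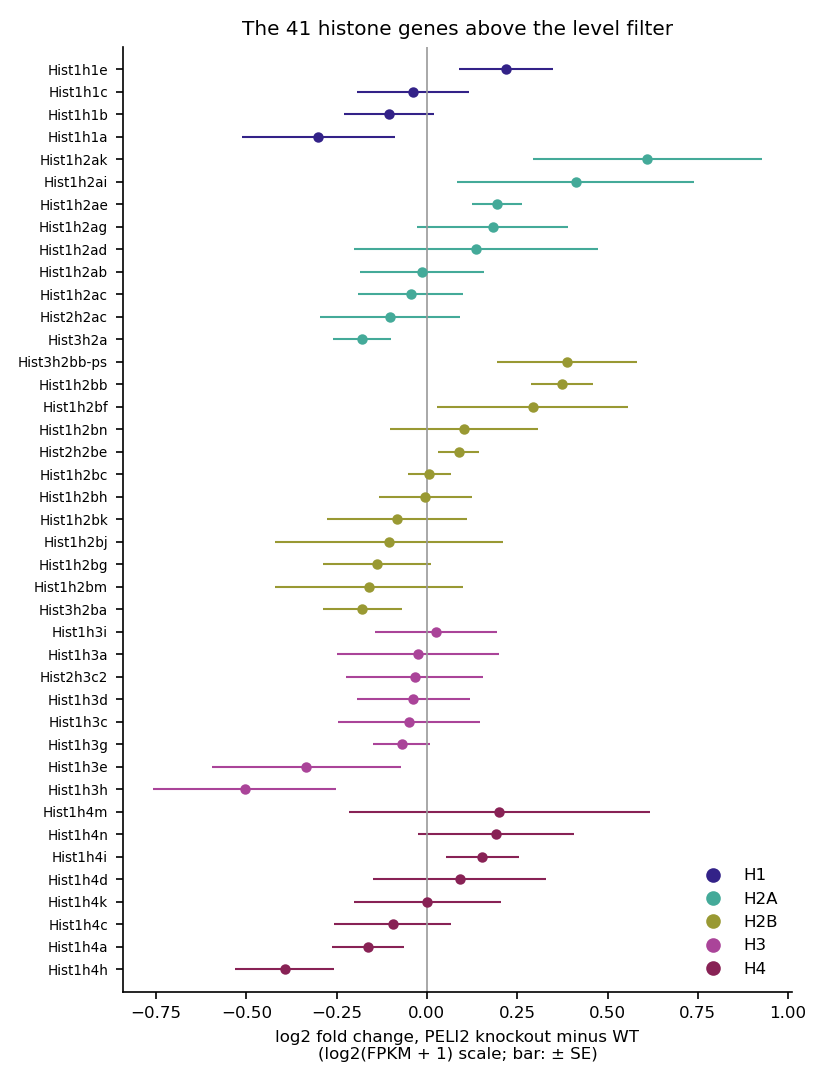
Log2 fold change, PELI2 knockout minus WT, on the log2(FPKM + 1) scale (x axis) of the 41 histone genes above the level filter, coloured by type; bars are ± SE from limma. The values run from -0.50 for Hist1h3h to 0.61 for Hist1h2ak, and the widest bar is that of Hist1h4m (SE 0.42).

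Summed over members, the groups differed by less than the SD of the WT libraries in each histone type. H1 summed to 193 ± 42.9 FPKM in WT and 185 ± 11.6 FPKM in PELI2 knockout, H2A to 31.2 ± 6.39 and 32.3 ± 0.168 FPKM, H2B to 113 ± 11.1 and 110 ± 8.33 FPKM, H3 to 25.6 ± 3.89 and 24.2 ± 1.18 FPKM, and H4 to 49.9 ± 6.23 and 51.3 ± 1.38 FPKM. The ratio of PELI2 knockout to WT lay between 0.944 for H3 and 1.03 for H2A and H4, and the groups overlapped in each type. Over all 62 members the sums were 492, 377 and 369 FPKM in WT and 400, 423 and 385 FPKM in PELI2 knockout, a ratio of 0.976. The spread came mainly from the WT side, where replicate 1 was the highest of the 6 libraries in every type.

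**Figure D5:**
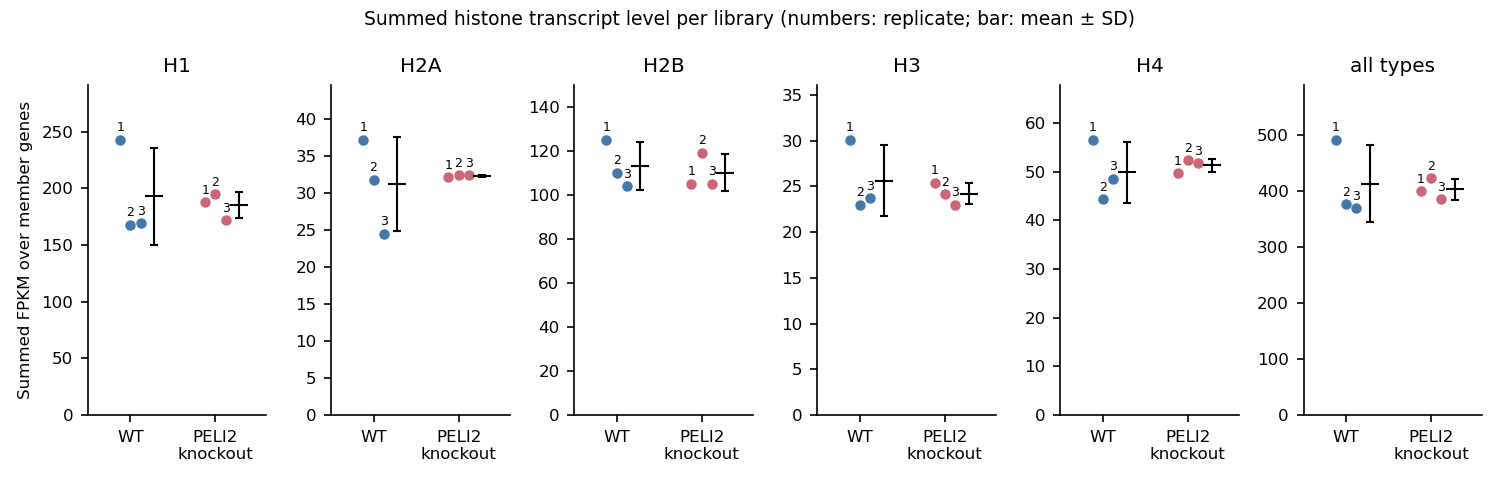
Summed FPKM of the histone genes per library (y axis from 0 in each panel), by type and over all types; points are libraries numbered by replicate, and bars are mean ± SD. WT replicate 1 is the highest point in each panel, at 492 FPKM over all types, while the other 5 libraries lie between 369 and 423 FPKM.

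WT replicate 1 held the highest of the 6 values for 14 of the 41 tested members (34.1%) and the lowest for 2, whereas over all 12953 genes it held the highest for 25.7% and the lowest for 25.9%. WT replicate 3 held the lowest for 14 members (34.1%), against 10.7% of all genes. Without WT replicate 1, the ratio of the summed FPKM over all members was 1.08 and the number of members higher at an unadjusted p under 0.05 was 6 in place of 2. Hist1h1c then had a log2 fold change of 0.14 in place of -0.04, and no member was called. The direction of the sum thus rests on that library.

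Markers of B-lineage, granulocyte, monocyte and erythroid cells moved with the label and with WT replicate 1. None of them was called at an adjusted p under 0.05, and the lowest (limma) was 0.0908, for granulocyte markers. A list with 0 called is therefore not shown to be alike between the labels. Over all genes tested, 11.5% lay apart on the higher and 14.3% on the lower side. The B-lineage marker Cd79a, a chain of the B cell receptor complex, was present in all 6 libraries (636 ± 76.4 and 503 ± 13.9 FPKM), but the granulocyte and erythroid sums exceeded the B-lineage sum in each library. The summed FPKM of 10 B-lineage markers was 1880 to 2240 in WT and 1520 to 1610 in PELI2 knockout, and 6 of the 10 lay apart on the lower side. The sum of 12 granulocyte markers was 7700 to 10700 against 12100 to 14300 FPKM (10 of 12 apart, higher), of 10 monocyte markers 687 to 963 against 1030 to 1270 FPKM (8 of 10), and of 11 erythroid markers 9290 to 13500 against 14100 to 17900 FPKM (4 of 11). T and NK cell markers summed to 90.8 to 112 against 113 to 142 FPKM (2 of the 9 tested), while those of plasmacytoid dendritic cells (1430 to 1630 against 1450 to 1620 FPKM) and plasma cells (1470 to 2250 against 2150 to 3480 FPKM) overlapped in their sums. Single markers of both lay apart all the same: 6 higher and 1 lower of 10 for plasmacytoid dendritic cells, where Spib (454 ± 86.9 and 361 ± 18.3 FPKM) and Ly6d (472 ± 45.5 and 418 ± 20.2 FPKM) carry much of the sum, and 3 higher and 3 lower of 10 for plasma cells. WT replicate 1 had the highest B-lineage sum and the lowest granulocyte, monocyte, erythroid, plasma cell and T and NK cell sums. The part of cell makeup in the histone values was not tested, and in bulk samples fewer cells of a type and less RNA per cell cannot be told apart.

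No gene of the machinery that makes the histone mRNA end passed the test. Of 20 tested genes for 3′ end formation and turnover, 0 were called, with a median log2 fold change of -0.029. At an unadjusted p under 0.05, 0 were higher and 3 were lower (15%). Of all genes tested, 18.1% reached it in either direction and 8.88% on the lower side. Slbp, which binds the stem-loop, stood at 23.3, 24.4 and 24.8 FPKM in WT and 23.5, 25.3 and 24.5 FPKM in PELI2 knockout, and the groups overlapped (limma adjusted p = 0.896). The 3 lower genes were Zcchc11, a uridyl transferase linked to histone mRNA decay, at 21.2 ± 1.29 and 18.4 ± 0.412 FPKM (limma adjusted p = 0.192), Cpsf2, a subunit of the cleavage complex, at 27.5 ± 3.04 and 23.2 ± 1.28 FPKM, and Cstf2, at 11.4 ± 0.338 and 10.4 ± 0.204 FPKM. Cpsf3, the cleavage enzyme itself, stood at 17.2 ± 0.547 and 15.8 ± 0.733 FPKM. In this list 0 genes lay apart on the higher and 4 on the lower side (20%, against 25.8% of all genes tested).

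Among 14 genes for histone gene transcription, 0 were called, and 1 was higher and 2 were lower at an unadjusted p under 0.05 (median log2 fold change -0.052). These 3 were 21.4% of the list, against 18.1% of all genes tested. Groups lay apart in 1 gene on the higher and 5 on the lower side. That is 42.9%, against 25.8% of all genes tested (11.5% higher and 14.3% lower). Whether these shares differ from those of other genes was not tested. Npat, the coactivator that cyclin E and its kinase switch on at histone genes, stood at 6.15 ± 0.476 and 5.86 ± 0.334 FPKM. Ccne1, cyclin E1, was the higher gene at 13.2 ± 0.676 and 15.4 ± 1.78 FPKM (limma adjusted p = 0.272). The 2 lower at an unadjusted p under 0.05 were Yy1, at 34.7 ± 1.47 and 31.4 ± 0.393 FPKM, and Nfya, a subunit of the factor that binds CCAAT, at 26.9 ± 1.14 and 24.3 ± 1.21 FPKM. E2f2, which acts at the entry to S phase, stood at 119 ± 12.3 and 105 ± 9.64 FPKM with overlapping groups.

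Replacement histones, most of which are made outside DNA replication too and from polyadenylated mRNAs, summed to more than the replication-dependent genes for H3 and H2A, and to less for H1. The 12 genes of that list summed to 1450 FPKM on average against 408 FPKM for the 62 members. H3f3a and H3f3b, which both encode H3.3, summed to 709 FPKM against 24.9 FPKM for the 10 H3 members, and H2afz and H2afv, which encode H2A.Z proteins, to 314 FPKM against 31.7 FPKM for the 17 H2A members. The linker variants H1f0 and H1fx, chosen after their values were seen, stood at 20.9 and 3.4 FPKM on average, against 189 FPKM for the 6 H1 members, most of it Hist1h1c. H3f3b stood at 567 ± 34.8 and 558 ± 14 FPKM, H3f3a at 152 ± 6.41 and 141 ± 3.3 FPKM and H2afz at 224 ± 3.56 and 241 ± 13.7 FPKM. Of 10 tested genes 0 were called, and 1 was lower at an unadjusted p under 0.05 (10%, against 18.1% of all genes tested in either direction and 8.88% on the lower side). That gene was H2afv, at 86.9 ± 7.52 and 75.9 ± 1.05 FPKM (limma adjusted p = 0.236). The groups did not overlap in 1 gene on the higher and 4 on the lower side (50%, against 25.8% of all genes tested). Whether these shares differ from those of other genes was not tested. H2afx, the variant marked at DNA breaks, stood at 261 ± 17.5 and 241 ± 3.25 FPKM, and Cenpa, the H3 variant of centromeres, at 39.8 ± 0.799 and 37.7 ± 1.02 FPKM. These gaps between families compare RNA after poly(A) selection and not the amounts of the proteins.

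Histone chaperones, which carry histones to DNA, gave 0 called of 22 tested, with 2 lower at an unadjusted p under 0.05 and a median log2 fold change of -0.028. The 2 were Rbbp4, a subunit of the CAF-1 chaperone, at 34.0 ± 1.26 and 30.9 ± 0.73 FPKM, and Daxx, a chaperone of H3.3, at 27.9 ± 1.51 and 25.0 ± 0.519 FPKM (limma adjusted p of 0.228 and 0.235). Asf1a stood at 8.67 ± 0.488 and 7.82 ± 0.118 FPKM, and Ubn1 at 25.0 ± 0.292 and 23.2 ± 0.895 FPKM. The share of chaperones at an unadjusted p under 0.05 was 9.09%, against 18.1% of all genes tested. Groups lay apart in 1 chaperone on the higher and 5 on the lower side (27.3%, against 25.8% of all genes tested).

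Genes that mark dividing cells gave no call either. Of 24 DNA replication genes 0 were called, while 1 lay higher and 2 lay lower by an unadjusted p under 0.05, with a median log2 fold change of 0.026. Tk1, thymidine kinase, was the higher one at 16.8 ± 0.819 and 18.7 ± 0.967 FPKM. Uhrf1, which guides maintenance of DNA methylation, at 102 ± 7.06 and 88.4 ± 1.95 FPKM, and Rfc3, a clamp loader subunit, at 13.7 ± 0.791 and 12.1 ± 0.414 FPKM, were the lower ones. Of 20 mitosis genes 0 were called and 0 reached an unadjusted p under 0.05, and Mki67 stood at 118 ± 4.50 and 120 ± 7.50 FPKM (limma adjusted p = 0.874). The share at an unadjusted p under 0.05 was 12.5% for DNA replication, against 18.1% of all genes tested. Groups lay apart in 2 DNA replication genes on the higher and 4 on the lower side. For mitosis genes these counts were 2 and 3. Either list thus had 25% apart, against 25.8% of all genes tested.

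Values of small RNAs without a poly(A) tail are given beside those of the histone genes. They cannot show how much the selection let through, as all 6 libraries went through it. Of the 8 with a row, 2 passed the level filter. Rny1 and Vaultrc5 stood at 0 in 5 of the 6 libraries and at 0.493 and 0.772 FPKM in PELI2 knockout replicate 1. The 8 summed to 4.57, 4.60 and 1.64 FPKM in WT and 4.69, 5.78 and 5.41 FPKM in PELI2 knockout. PELI2 knockout was higher throughout, but its replicate 1 exceeded the nearest WT library by less than the value of Rny1 or of Vaultrc5 alone. WT replicate 3 was the lowest, as it was for 14 of the 41 tested histone members. Rn7sk, the highest of them and normally very abundant in cells, stood at 0.876 to 2.51 FPKM over the 6 libraries, with overlapping groups. Their part in the histone levels was not tested.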

How the data were processed

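Per the labels' protocols, TRIzol-extracted RNA went through oligo(dT) bead selection before sequencing of single-end 50-base reads (DNBSEQ). Whether the kit marks strand is not given in the sources used here, so reads of antisense genes are not separated. The submitters' processing notes list the build GRCm38.p6 and the tools RSEM 1.2.12, HISAT2 2.0.4, DESeq2 1.4.5 and Bowtie2 2.2.5 without saying what each did. The deposited values are FPKM per gene and library, made by the authors; no further scaling is stated.

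The members and the 14 gene lists were chosen with earlier results of these data known. From the FPKM, depth was recovered by searching for the library total that makes values under 6 reads whole, using genes with 1 transcript other than the members (99.1% to 99.4% whole within 0.03 reads). Genes with FPKM of 1 or more in 3 libraries (12953) were tested with limma 3.58.1 in R 4.3.3 on log2(FPKM + 1), with eBayes with a trend, two-sided, with Benjamini-Hochberg adjustment over all of them and no replicate block. On simulated data with 12953 genes and 3 libraries per group, the fit recovered 69.3%, 89.3%, 98% and 98% of genes changed by 0.5, 1, 2 and 3 (log2), and 7.48% of calls were false. The changed genes were drawn only from those with a mean log2(FPKM + 1) above 2. The median histone member, at 1.62 FPKM, lies below that level, so these shares do not describe the lower members. Noise was drawn separately for each gene and library, so a shift shared by many genes of a library was not simulated. In the real fit the granulocyte marker Ctsg, chosen after its values were seen, had a log2 fold change of 1.65 and was not called (limma adjusted p = 0.0908). The shares therefore do not show what change in the higher members would have been called. Lists and sums are given as counts, medians and values with no set test. Genes named are Peli2, the 3 highest members per type, and up to 4 tested members with the smallest p in each direction. A few are fixed (Slbp, Npat, H3f3a, H3f3b, H2afz, Mki67). From the lists of histone-related, DNA replication and mitosis genes, up to 4 with the smallest p are named. Names from the cell type marker lists (up to 3 each) and from the small RNAs (up to 4) follow the highest mean FPKM. List genes without a row were Ahsp, Rmrp, Rn7s1, Rn7s2, Rnu11, Rnu7, Rny3, Rpph1, Rprl3, Snora73a, Snora73b and Symplk. Transcripts came from GENCODE M21 and promoters from RefSeq (GRCm38.p6). Alternatives were pseudocounts of 0.1 and 0.5, other filters, 3 scalings, eBayes without a trend, the replicate number as a block, and each library left out. Figures used matplotlib 3.10.9.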

Additional observations from a re-analysis of the deposited data

How the results depend on the processing

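No histone member was called in any alternative or with any library left out. Over all genes, 3 were called, against 1 with a filter of FPKM 5, 6 without the eBayes trend and 1 to 13 with a library left out, the 13 being without PELI2 knockout replicate 3 and the 1 without PELI2 knockout replicate 1 or 2. Members higher at an unadjusted p under 0.05 numbered 2, against 1 with the filter of 5, 1 after rescaling to a common total and 1 to 6 with a library left out, the 6 without WT replicate 1 and the 1 without PELI2 knockout replicate 1. Members lower numbered 1, against 2 with no filter, 0 with the filter of 5, 3 after the common total, and 0 to 4 with a library left out, the 4 without WT replicate 3 and 0, 2 and 3 without PELI2 knockout replicates 1, 2 and 3. The cause was not tested, except that a filter of 5 leaves fewer genes. With the replicate number as a block, 4 genes were called, 0 members were called, and 2 members were higher and 3 lower. Deviations of libraries with the same number correlated at 0.101, 0.0362 and 0.0901, against -0.107 to 4.53e-05 for other numbers. Each library correlated best with the library of its own number in the other group. Whether libraries of the same number share more than the number was not tested. The median log2 fold change of members ranged from -0.097 to 0.06 with a library left out. The summed ratios then ranged from 0.901 to 1.1 (H1), 0.935 to 1.15 (H2A), 0.928 to 1.03 (H2B), 0.899 to 1.03 (H3), 0.975 to 1.1 (H4) and 0.927 to 1.08 (all).

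No gene below was called, and its log2 fold change changed sign. After rescaling to a common total, which shifted the median of all genes by -0.0624, it was -0.065 for Hist1h2bc, -0.036 for Hist1h3i, -0.06 for Hist1h4k, -0.056 for Slbp and -0.051 for Mki67; after quantile normalization it was -0.017 for Hist1h2bc and -0.039 for Mki67. With a library left out it ranged from -0.132 to 0.141 for Hist1h1c, -0.23 to 0.011 for Hist1h1b, -0.207 to 0.06 for Hist1h2ac, -0.041 to 0.04 for Hist1h2bc, -0.288 to 0.028 for Hist1h2bg, -0.241 to 0.101 for Hist1h3c, -0.099 to 0.228 for Hist1h3i, -0.184 to 0.227 for Hist1h4k, -0.326 to 0.506 for Hist1h4m, -0.011 to 0.043 for Slbp, -0.057 to 0.027 for H3f3b, -0.028 to 0.052 for Mki67 and -0.094 to 0.354 for Rn7sk. The cause was not tested. Most members had under 50 reads per library, and for these depth limits what a difference could show.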
